A study of Mus musculus with 16 samples.

Results

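Primary midbrain dopaminergic neurons sorted from mouse embryos at embryonic day E14.5 were compared with those sorted at E13.5. The comparison used 6 of the 16 arrays of the series, 3 per stage, chosen by their titles alone. The labels call the 3 arrays of a stage technical replicates, so each stage was 1 biological sample and no test across animals was possible; the stage and its single sample cannot be told apart. All 6 arrays held RNA of heterozygous Pitx3GFP/+ embryos on a C57BL/6 x 129/Ola (mixed) background, in which green fluorescent protein (GFP) is carried at the locus of Pitx3, and GFP-positive cells were collected from the ventral midbrain by fluorescence-activated cell sorting. No group of the series lacked the reporter allele, and both stages carried the allele in 1 copy. The other 10 arrays held neurons of the same genotype derived from induced pluripotent stem cells (iPSCs), 5 differentiated with recombinant human WNT1 and DKK3 and 5 control samples without them. They are used here only to show the level of single genes. How many embryos were pooled for a stage, and whether the technical arrays share 1 extract or 1 amplification, is not given in the sources used here.

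Midbrain dopaminergic neurons arise from floor plate progenitors under Foxa2, Lmx1a, Lmx1b and Otx2, leave the cell cycle and switch on Nr4a2, Pitx3 and then the genes of dopamine synthesis, storage and uptake. They later form the substantia nigra, which projects to the dorsal striatum and degenerates in Parkinson's disease, and the ventral tegmental area, which projects to limbic and cortical targets. Aldh1a1 and Sox6 are known for the nigral neurons, and Calb1, Otx2 and Neurod6 for tegmental ones.

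Levels below are log2 values after RMA normalization, a difference is the E14.5 mean minus the E13.5 mean, and a log2 difference of 1 is 2-fold. Array medians over genes lay between 6.17 and 6.25. Arrays of a stage correlated at 0.968 to 0.980 across 19938 genes, and arrays of different stages at 0.964 to 0.975, where genes are not independent replicates. The median SD over the 3 arrays was 0.228 at E13.5 and 0.215 at E14.5. Array 3 of E13.5 stood apart: its values had a SD of 1.71 over genes against 1.79 to 1.82 on the other 5 arrays, and 489 genes lay at least 2-fold from the mean of its stage mates against 193 to 326 for the others. It was no more like its own stage (correlation 0.968) than like E14.5 array 3 (0.973). Values without it are given beside many of the results it moved.

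The 2 stages were about as alike as technical arrays of the same stage. Between single arrays, 291 to 700 genes (median 578) lay at least 2-fold apart within a stage, and 474 to 888 (median 526) between stages. The stage means correlated at 0.990, 97.1% of genes differed by less than 1.5-fold, and the central 95% of differences ran from -0.49 to 0.52 around a median of -0.0067. A gene was called when the stage means differed by at least 2-fold and the 3 arrays of one stage all lay beyond the 3 of the other. By that rule 35 of 19938 genes (0.176%) were higher at E14.5 and 13 (0.0652%) were lower. Without the rule on overlap, 47 were higher and 20 lower. With a least difference of 1.5-fold, 207 genes (1.04%) were higher and 113 (0.567%) lower, and with none, 947 (4.75%) and 983 (4.93%). These shares are the background for every count below.

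**Figure D1:**
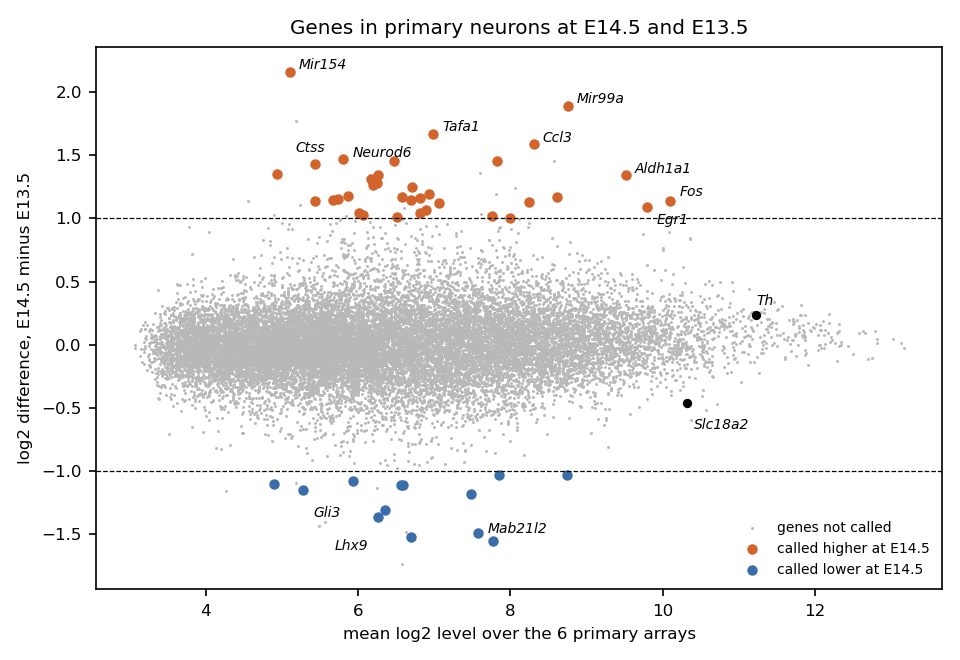
Each point is 1 of 19938 genes, with the mean log2 level over the 6 primary arrays on the horizontal axis and the log2 difference, E14.5 minus E13.5, on the vertical axis; dashed lines mark 2-fold. The 35 genes called higher (orange) reach 2.16 and the 13 called lower (blue) reach -1.56, while Th (0.23) and Slc18a2 (-0.46), in black, lie inside the lines.

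Of the 48 called genes, 20 were called again without each of the 6 arrays in turn, 15 of those higher and 5 of those lower. These were Mir154, Mir99a, Tafa1, Neurod6, Ndrg2, Selenop, Ctss, Il1a, Aldh1a1, Mal2, Alg1, 1700086L19Rik, Nme5, Fos and Ly86 among the higher genes, and Rnu3a, Lhx9, Mab21l2, Gli3 and Zfp626 among the lower. The same 20 were also called without both arrays numbered 3. Leaving out an array cannot make separate ranges meet, so for called genes these settings tried the 2-fold size alone. Without E13.5 array 3 alone, the call was lost for Calb1, Ccl3, Egr1, C1qc, Sparcl1, Rsph4a, Lypd1, Zfp933 and Gm12238 among the higher genes and for Mcur1 and Myo9a among the lower.

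**Figure D2:**
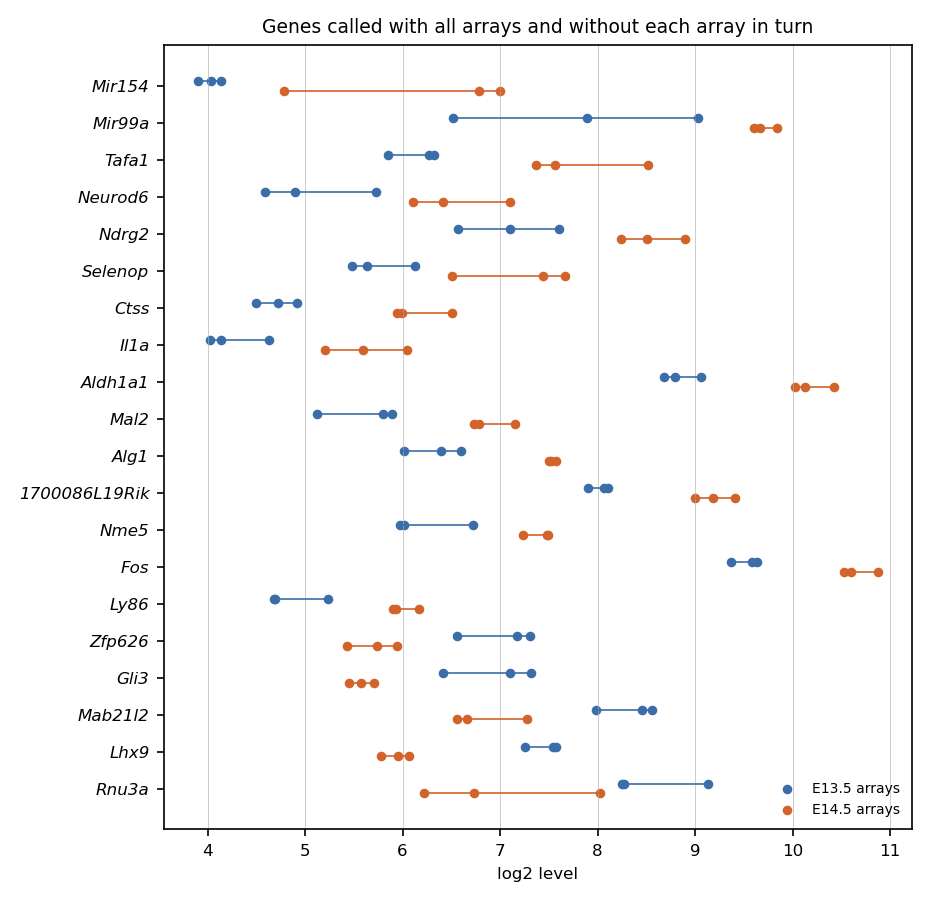
Log2 levels of the 20 genes called with all arrays and without each array in turn, on the 3 E13.5 arrays (blue) and the 3 E14.5 arrays (orange), with a line over the range of each stage. Aldh1a1 lies between 8.69 and 9.05 at E13.5 and between 10.02 and 10.42 at E14.5, and Lhx9 between 7.25 and 7.57 and then between 5.78 and 6.07. In no gene do the ranges meet, which the calling rule fixed in advance.

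The genes of dopaminergic identity were present at both stages at similar levels, and most differed by less than the spread of the arrays. Pitx3, the locus of the reporter, was at 7.42, 7.74 and 7.16 on E13.5 arrays 1 to 3 and at 7.38, 7.67 and 7.46 on E14.5 arrays 1 to 3, and the stages overlapped (difference 0.07). Th, which encodes the enzyme that sets the rate of dopamine synthesis, was at 11.34, 11.48 and 10.52 at E13.5 and at 11.35, 11.53 and 11.16 at E14.5. Its difference of 0.23 came from the low value of E13.5 array 3 and was -0.07 without it. Ddc, which makes dopamine from L-DOPA, differed by -0.15, and Drd2, the autoreceptor, by 0.13, both with overlapping arrays. In iPSC-derived arrays Th ran from 5.29 to 9.22 and Ddc from 5.63 to 8.19, below all 6 primary arrays.

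Storage and uptake genes differed in sign. Slc18a2, the vesicular monoamine transporter gene that loads dopamine into vesicles, was at 10.63, 10.67 and 10.34 at E13.5 and at 10.19, 9.95 and 10.11 at E14.5. All E14.5 arrays lay below all E13.5 arrays, with means of 10.55 ± 0.18 and 10.08 ± 0.12 (SD, n = 3 arrays each) and a difference of -0.46, short of the 2-fold size. Slc6a3, the plasma membrane dopamine transporter gene and a late marker of these neurons, was at 8.54, 9.12 and 8.57 at E13.5 and at 9.24, 9.22 and 8.88 at E14.5. Its difference was 0.37 with overlapping arrays, and 0.65 with the median of each stage in place of the mean. Maoa, the gene of the mitochondrial enzyme that degrades dopamine, differed by 0.61 (5.58 to 6.98 at E13.5 and 6.63 to 6.99 at E14.5) with overlap. Of 12 measured genes of dopamine synthesis, storage, uptake and autoreceptors, 0 were called, 4 lay above 0 and the median was -0.10.

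The transcription factors of the lineage showed the same narrow range. Nr4a2, the orphan receptor needed for the dopaminergic transmitter phenotype, was at 11.83, 11.82 and 11.42 at E13.5 and at 11.85, 11.79 and 11.56 at E14.5 (difference 0.04). En1 and En2, the engrailed homeobox genes that keep these neurons alive, differed by 0.16 and -0.14. The forkhead genes Foxa1 and Foxa2 differed by -0.36 and -0.11, the LIM homeobox gene Lmx1b by 0.05, and Ret, the receptor tyrosine kinase gene of the GDNF pathway, by 0.04. All of these arrays overlapped. Lmx1a had no probe set with a single gene symbol and was not measured. Of 20 dopaminergic transcription factors, 1 was called higher (Neurod6, below) and 0 lower, and the median was -0.01. Without E13.5 array 3 that median was -0.21, and 8 of the 20 then lay wholly lower at E14.5, where 10.7% of all genes did.

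**Figure D3:**
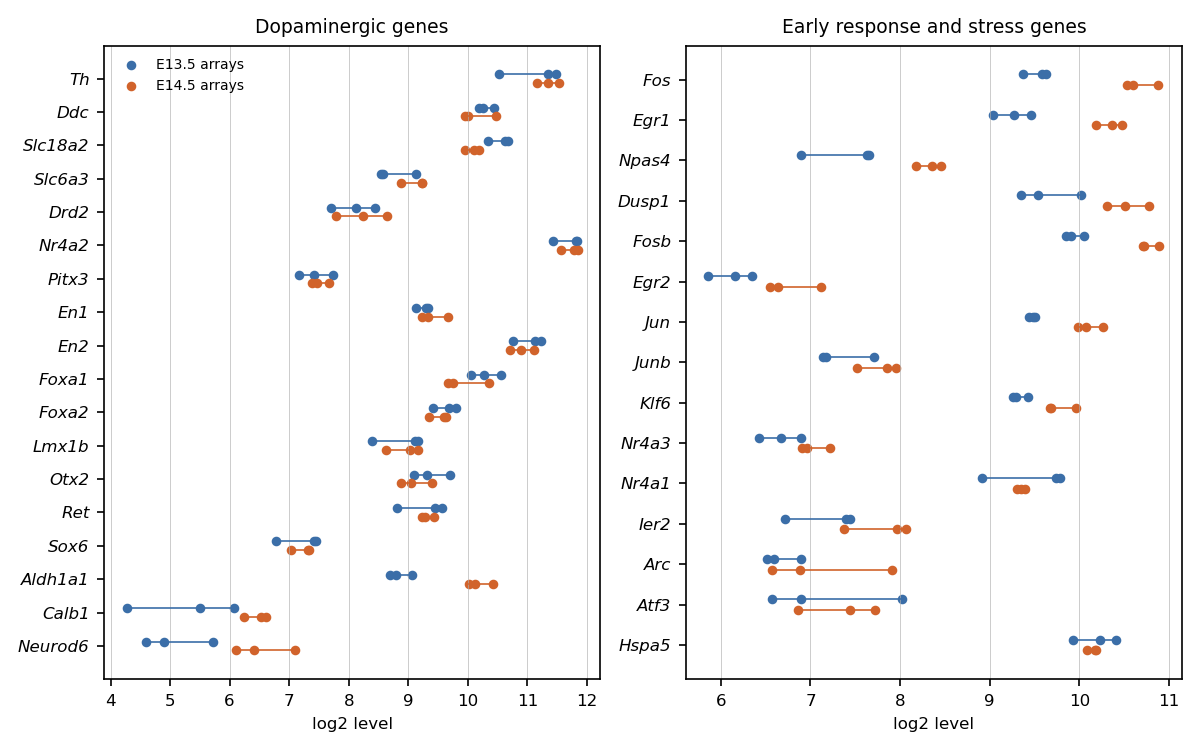
Log2 levels on the 3 E13.5 arrays (blue) and the 3 E14.5 arrays (orange), with a line over the range of each stage, for 18 dopaminergic genes (left) and 15 early response and stress genes (right). Th, Ddc, Nr4a2 and Pitx3 overlap between stages, Aldh1a1, Calb1 and Neurod6 lie higher at E14.5, and Fos, Egr1, Npas4, Dusp1, Fosb and Jun lie higher at E14.5 on every array.

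Markers of dopaminergic subtypes held the clearest differences within the lineage. Aldh1a1, the retinaldehyde dehydrogenase gene of nigral neurons, was at 9.05, 8.80 and 8.69 at E13.5 and at 10.12, 10.42 and 10.02 at E14.5. The stages did not overlap, with means of 8.85 ± 0.19 and 10.19 ± 0.21 and a 2.54-fold higher level at E14.5 (difference 1.34, and 1.23 to 1.45 over the 6 leave-outs). Of 14 genes enriched in substantia nigra neurons, 12 lay above 0 (48.9% of all genes did), 1 was called higher and 0 lower. The median was 0.16, or 0.27 without E13.5 array 1 and 0.09 without E13.5 array 2. Without E13.5 array 3, 10 of the 14 lay above 0, and without both arrays numbered 3, 9 did. Ndnf, a secreted neurotrophic factor gene, differed by 0.55 and Igf1, insulin-like growth factor 1, by 0.48, both without overlap. Sox6, a transcription factor of the nigral branch, differed by 0.01, and Kcnj6, the Girk2 potassium channel gene, by 0.32 with overlap. The mean level of the list ran from 6.56 to 6.77 on E13.5 arrays and from 6.87 to 6.92 on E14.5 arrays.

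Among 15 genes of ventral tegmental neurons, 2 were called higher, 0 lower, 10 lay above 0 and the median was 0.01. Neurod6, a basic helix-loop-helix factor gene of a tegmental subset, was at 4.89, 5.73 and 4.59 at E13.5 and at 6.10, 7.10 and 6.41 at E14.5, 2.77-fold higher (difference 1.47, and 1.23 without E13.5 array 3). Calb1, the calcium buffer calbindin, was at 5.51, 6.07 and 4.27 at E13.5 and at 6.53, 6.61 and 6.24 at E14.5. Its difference of 1.18 fell by over 1.5 times to 0.67 without E13.5 array 3, which no longer met the 2-fold size. Otx2, which marks and protects tegmental neurons, differed by -0.27, the neuropeptide gene Cck by -0.02 and the vesicular glutamate transporter gene Slc17a6 by 0.14, all with overlap. Thus 3 subtype genes, of both branches, met the rule while most members of both lists did not.

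The named genes with the largest differences toward lower levels at E14.5 were regulators of patterning. Lhx9, a LIM homeobox gene of early diencephalic and midbrain neurons, was at 7.57, 7.54 and 7.25 at E13.5 and at 5.78, 5.95 and 6.07 at E14.5, 2.87-fold lower (difference -1.52). Mab21l2, a Mab-21 family gene active in the developing eye and midbrain, was at 7.98, 8.45 and 8.55 and then at 6.66, 6.56 and 7.28 (difference -1.50). Gli3, a zinc finger factor gene that acts mainly as a repressor in the Hedgehog pathway, was at 7.31, 7.11 and 6.41 and then at 5.71, 5.57 and 5.45 (difference -1.36). The 3 genes were lower on every E14.5 array, as the calling rule requires, and they kept the 2-fold size in all leave-outs. Tfap2d, an AP-2 family gene, was at 6.97, 5.38 and 5.20 and then at 4.53, 5.04 and 4.55 (difference -1.15). Its high E13.5 value was array 1, without which the difference was -0.59 and the size rule was not met.

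Lists of other midbrain neurons held further factor genes that lay lower, by smaller amounts. Among 19 markers of GABAergic midbrain neurons, 0 were called, 4 lay wholly lower at E14.5 (21.1%, against 4.93% of all genes), 0 wholly higher, and the median was -0.16, or -0.05 without E14.5 array 2. The 4 were Gata3 (-0.92; 6.57 to 7.28 at E13.5 and 5.88 to 6.16 at E14.5), Sox14 (-0.85), Six3 (-0.50) and Tal1 (-0.36), all transcription factor genes. The defining transmitter genes did not follow them: Gad2 ran from 8.54 to 9.34 at E13.5 and from 8.95 to 9.40 at E14.5 (difference 0.32), Slc32a1, the vesicular GABA transporter gene, from 8.38 to 9.17 and from 8.38 to 8.76 (-0.16), and Gad1 differed by -0.03. Gad2 and Slc32a1 lay above the array medians on all 6 arrays and above their own levels in all 10 iPSC-derived arrays. Among 17 markers of red nucleus, oculomotor and other glutamatergic neurons, Lhx9 was called lower, and Barhl2 (-0.72) and Lhx2 (-0.59) also lay wholly lower. Wholly lower were thus 17.6% of this list, against 4.93% of all genes. The 17 had no common direction: 8 lay above 0 (47.1%, against 48.9% of all genes) and the median was -0.0093. The mean level of the glutamatergic list ran from 5.94 to 6.05 at E13.5 and from 5.79 to 5.92 at E14.5. Its defining markers Pou4f1 and Chat differed by -0.17 and 0.13. Of 7 serotonergic markers, 0 lay above 0 (median -0.12), with Tph2, the defining enzyme gene, at 4.20 to 4.65 and then at 4.02 to 4.29. Without E13.5 array 3, 2 of the 7 lay above 0. The median was -0.03 without E13.5 array 1 and also without E14.5 array 1. The 1 that lay wholly lower (14.3%, against 4.93% of all genes) was Gata3, listed also among the GABAergic markers. Whether other neurons in the sort had a part in the differences of Lhx9, Mab21l2 or Gli3 was not tested. In RNA of sorted cells in bulk, fewer cells of a type and less RNA per cell cannot be told apart.

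The remaining genes called higher were of mixed function. Tafa1, a secreted chemokine-like protein gene of the brain, was at 6.28, 6.32 and 5.85 at E13.5 and at 7.37, 7.56 and 8.52 at E14.5, 3.18-fold higher (difference 1.67). Lrrtm3, a leucine-rich repeat protein gene of synapses, was at 7.55, 7.60 and 7.89 and then at 9.06, 8.56 and 8.79 (difference 1.13). Epha6, an ephrin receptor gene, was at 5.17, 5.29 and 5.02 and then at 6.12, 6.08 and 6.73 (difference 1.15). The gap between the stages was wider than the range within either stage for Lrrtm3 and Epha6, but not for Tafa1, whose E14.5 arrays were spread.

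Mal2, a membrane trafficking protein gene, was 2.43-fold higher (5.12 to 5.89 and then 6.73 to 7.15), and Camk4, a calcium/calmodulin kinase gene, differed by 1.03. Lypd1, a Ly6 family gene whose product binds nicotinic receptors, differed by 1.02, and Ctxn2, a cortexin gene, by 1.25, with its E13.5 values spread from 4.90 to 6.82. Without E13.5 array 1 the difference of Ctxn2 was 0.65 and the call was lost. Ndrg2, a gene of the NDRG family that is abundant in astrocytes, was at 7.61, 7.10 and 6.57 and then at 8.90, 8.24 and 8.50 (difference 1.46). Nme5 and Rsph4a, genes of cilia and flagella, differed by 1.16 and 1.35, but Rsph4a was at 4.49 on E13.5 array 3 and differed by 0.80 without it. Pde3b, a cyclic nucleotide phosphodiesterase gene, differed by 1.32, and Alg1, a mannosyltransferase gene of N-glycan synthesis, was 2.29-fold higher.

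Among the other lower genes, the zinc finger genes Zfp626 (-1.31), Zfp418 (-1.11) and Zfp710 (-1.03) were called, while Zfp933, of the same broad class, was higher (1.04). Rnf24, a RING finger gene, was lower by a difference of -1.18, and Mcur1, a regulator gene of the mitochondrial calcium uniporter, by -1.11. Mcur1 was at 7.91 on E13.5 array 3 and at 6.78 and 6.77 on its stage mates, and its difference was -0.73 without that array. Myo9a, an unconventional myosin gene, was called at -1.03 on 1 of its 13 probe sets. The 13 ran from -1.03 to 0.52, and the mean over them was -0.26, so the call is that of a probe set rather than of the gene as a whole. Of the 48 called genes, 7 were predicted genes, clone names or small RNAs, among them the U3 small nucleolar RNA gene Rnu3a (-1.56), which was named after its values were seen.

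Of the 34 gene lists, the one with the largest median difference was that of microglia and macrophages, the immune cells of the embryonic brain, and other genes of innate immunity were called beside it. Ctss, the lysosomal protease cathepsin S of microglia and macrophages, was at 4.72, 4.50 and 4.92 at E13.5 and at 5.94, 5.99 and 6.50 at E14.5, 2.70-fold higher (difference 1.43). C1qc, a chain of complement C1q, was at 5.99, 6.34 and 5.70 and then at 6.78, 6.86 and 7.43 (difference 1.01, and 0.65 without both arrays numbered 3). Ly86, a partner of a Toll-like receptor homologue on myeloid cells, was at 4.68, 5.23 and 4.69 and then at 6.17, 5.90 and 5.93 (difference 1.14). The 3 genes lay higher on every E14.5 array, as the calling rule requires.

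The cytokine gene Il1a was at 4.14, 4.02 and 4.62 and then at 5.59, 5.21 and 6.04 (difference 1.35), among the dimmest 25% of genes. Ccl3, a chemokine gene, was at 8.22, 8.62 and 5.70 and then at 9.11, 9.09 and 9.10. Its difference of 1.59 fell by over 1.5 times to 0.68 without E13.5 array 3. Selenop, the selenium carrier protein gene, was at 6.13, 5.48 and 5.64 and then at 7.66, 7.44 and 6.51 (difference 1.46), and Sparcl1, a matricellular protein gene of glia and vessels, differed by 1.00 (0.65 without both arrays numbered 3). Il1a and Selenop kept the 2-fold size in every leave-out, whereas Ccl3 and Sparcl1 fell short of it without both arrays numbered 3.

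Of 20 microglia and macrophage markers, 16 lay above 0, 2 were called higher and 0 lower, and the median was 0.36, or 0.23 without E13.5 array 1 and also without E14.5 array 3. The 4 that lay wholly higher (20%, against 4.75% of all genes) were Ctss, C1qc, Csf1r (0.50) and Lyz2 (0.49). Without E13.5 array 3 they were 8 of 20 (40%, against 11.5% of all genes), with a median of 0.41. The mean level of the list ran from 5.32 to 5.56 at E13.5 and from 5.79 to 5.85 at E14.5. The defining markers were not all part of this: Cx3cr1 was at 6.09 to 6.84 and then at 6.42 to 6.90 (difference 0.29), C1qa at 5.22 to 5.80 and then at 5.60 to 6.11 (0.28), while Csf1r was at 5.49 to 5.95 and then at 6.04 to 6.46. Tmem119 and P2ry12 differed by -0.0023 and -0.01. Laptm5 (1.08) exceeded 2-fold with overlapping arrays, as did C1qb, at 5.52 to 6.33 and then at 6.06 to 8.60. The files hold no detection call, so no marker could be called absent, and the part of microglial RNA in these differences was not tested.

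Some immediate early genes, which are transcribed within minutes of a stimulus without new protein synthesis, were higher at E14.5, and 2 of the 36 listed with stress genes were called. Fos, a subunit gene of the AP-1 factor, was at 9.58, 9.63 and 9.37 at E13.5 and at 10.88, 10.60 and 10.53 at E14.5, 2.21-fold higher (9.53 ± 0.14 and 10.67 ± 0.18, difference 1.14). Egr1, a zinc finger factor gene, was at 9.47, 9.27 and 9.04 and then at 10.37, 10.48 and 10.19 (difference 1.09, and 0.98 without E13.5 array 3, just short of the size rule). In both genes the arrays of a stage lay closer together than the stages did.

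Several further members followed without reaching 2-fold. Npas4, a factor gene that responds to calcium influx in neurons, was at 7.63, 7.65 and 6.90 and then at 8.18, 8.45 and 8.35 (difference 0.94). Dusp1, a phosphatase gene that switches off MAP kinases, differed by 0.90, Fosb by 0.84, Egr2 by 0.64, Jun by 0.63, Klf6 by 0.45, Nr4a3 by 0.37 and Jund by 0.23. All of these lay higher on every E14.5 array. Nr4a1 (-0.13), Egr3 (0.01), Arc (0.46), Junb (0.44), Ier2 (0.62) and Atf3 (0.18) overlapped between stages. The heat shock genes Hspa8 (0.01), Hspa1a (-0.01) and Hspa5 (-0.04) also overlapped, and Hsp90aa1 was lower by a difference of -0.09 without overlap.

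Of the 36 measured immediate early and stress genes, 29 lay above 0, and 10 lay wholly higher at E14.5 (27.8%, against 4.75% of all genes) and 1 wholly lower. With a least difference of 1.5-fold, 7 were higher (1.04% of all genes were) and 0 lower. The mean level of the list ran from 7.88 to 7.90 at E13.5 and from 8.10 to 8.33 at E14.5. Early response genes are known to react to neuronal activity and also to the dissociation of tissue, and with 1 sorted sample per stage the stage and the handling of its sample cannot be told apart.

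Many promoters of this group carry the cyclic AMP response element, to which CREB binds, as the full TGACGTCA or as the shorter TGACG. The 200 bases before the start of 5 members that lay wholly higher are shown from RefSeq (GRCm38.p6), 5′ to 3′ on the strand of the gene, to set the genes that carry the shorter form beside 1 that does not. The 5 were chosen for this contrast, so they do not give the share of genes with the motif. Other members that lay wholly higher are not shown, among them Egr1 and also Egr2, whose windows held matches before some starts and none before others. Capitals mark TGACG on either strand.
Fos (chr12:85473690-85473889, plus strand): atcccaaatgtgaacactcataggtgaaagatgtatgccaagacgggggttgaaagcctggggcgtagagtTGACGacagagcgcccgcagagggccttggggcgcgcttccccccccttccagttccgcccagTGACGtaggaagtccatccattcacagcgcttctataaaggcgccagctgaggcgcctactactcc
Npas4 (chr19:4989972-4990171, minus strand): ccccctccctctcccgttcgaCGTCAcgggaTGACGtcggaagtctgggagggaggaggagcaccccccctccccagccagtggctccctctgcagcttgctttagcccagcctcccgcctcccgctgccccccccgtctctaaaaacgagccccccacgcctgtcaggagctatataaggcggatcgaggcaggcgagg
Dusp1 (chr17:26508473-26508672, minus strand): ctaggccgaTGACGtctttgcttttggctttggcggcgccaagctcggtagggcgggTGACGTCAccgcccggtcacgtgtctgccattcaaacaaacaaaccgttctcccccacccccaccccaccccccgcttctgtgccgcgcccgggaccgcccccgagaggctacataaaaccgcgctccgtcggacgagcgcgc
Fosb (chr7:19310046-19310245, minus strand): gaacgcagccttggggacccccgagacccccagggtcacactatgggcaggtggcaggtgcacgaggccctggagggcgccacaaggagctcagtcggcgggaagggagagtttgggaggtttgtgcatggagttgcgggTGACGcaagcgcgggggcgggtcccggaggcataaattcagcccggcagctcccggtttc
Jun (chr4:95052223-95052422, minus strand): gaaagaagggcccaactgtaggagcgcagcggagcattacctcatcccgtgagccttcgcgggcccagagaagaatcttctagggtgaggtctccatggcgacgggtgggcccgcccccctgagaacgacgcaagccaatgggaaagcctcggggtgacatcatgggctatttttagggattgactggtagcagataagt
In Fos the matches begin 129 and 66 bases before the start, in Npas4 179 and 169, and in Fosb 60. Dusp1 holds 3 matches, at 191, 143 and 140 bases, the last 2 being the 2 strands of 1 full element, and Jun holds none in this window.

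Over the full windows of the table (250 bases before to 50 after the start, either strand), TGACG was found in 18 of the 30 list genes with a promoter (60%), against 28.0% of measured genes and 23.0% of all genes in the table. The full element was found in 2 of 30, against 2.03% of all genes, and the CArG box, which serum response factor binds, in 1 of 30 (3.33%, against 1.81%). These motifs were searched after the early response genes were seen, and a match describes letters in a window, not a bound site. For the called genes as a group, 21 of the 35 higher and 12 of the 13 lower genes had a promoter. TGACG was in 5 of the 21 (23.8%) and 2 of the 12 (16.7%). The Nr4a monomer element AAAGGTCA was in none of either (1.70% of all genes), TAATCC, the core bound by Pitx and Otx factors, in 1 and 1 (8.14%), the E-box CAGCTG in 5 and 0 (18.3%), and CCAAT, bound by NFY, in 8 and 5 (41.1%).

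The largest differences of all were at 2 microRNA genes, Mir154 and Mir99a. Their mature sequences are given from RefSeq (GRCm38.p6), with the seed, bases 2 to 8, in capitals. Those of Mir154 lie on the plus strand at chr12:109738438-109738459 (5p) and chr12:109738474-109738495 (3p), and those of Mir99a on the plus strand at chr16:77598940-77598961 (5p) and chr16:77598977-77598997 (3p).
mmu-miR-154-5p: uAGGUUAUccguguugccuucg
mmu-miR-154-3p: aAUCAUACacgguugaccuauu
mmu-miR-99a-5p: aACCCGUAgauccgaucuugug
mmu-miR-99a-3p: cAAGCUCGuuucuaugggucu
The 4 seeds differ from each other. Whether these probe sets read the mature form, the hairpin or the longer primary transcript is not given in the sources used here.

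Mir154, of the imprinted Dlk1-Meg3 region, was at 4.03, 4.14 and 3.90 at E13.5 and at 7.00, 4.78 and 6.78 at E14.5, 4.48-fold higher (4.02 ± 0.12 and 6.19 ± 1.22, difference 2.16). E14.5 array 2 lay closer to E13.5 than to its stage mates, and the difference was 1.76 to 2.87 over the leave-outs. Mir99a was at 6.52, 7.89 and 9.03 at E13.5 and at 9.84, 9.67 and 9.60 at E14.5 (difference 1.89, and 1.25 to 2.50 over the leave-outs). Here the E13.5 arrays were the scattered ones, with a SD of 1.25 against 0.12 at E14.5. Among the 30 measured microRNA genes within 100 kb of Mir154, itself included, 1 was called higher and 0 lower, the median was 0.07, and the differences ran from -1.41 (Mir382) to 2.16. The long non-coding transcripts of the region Meg3 and Rian differed by 0.08 and 0.38. The neighbours of Mir99a did not share its difference: Mirlet7c-1 was at -0.08, Mir125b-2 at -0.16 and the host gene Mir99ahg at -0.04. Over 297 measured microRNA genes, 2 were called higher and 0 lower (the other 4 that reached 2-fold overlapped), and the median SD between arrays was 0.256 against 0.245 over other genes.

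**Figure D4:**
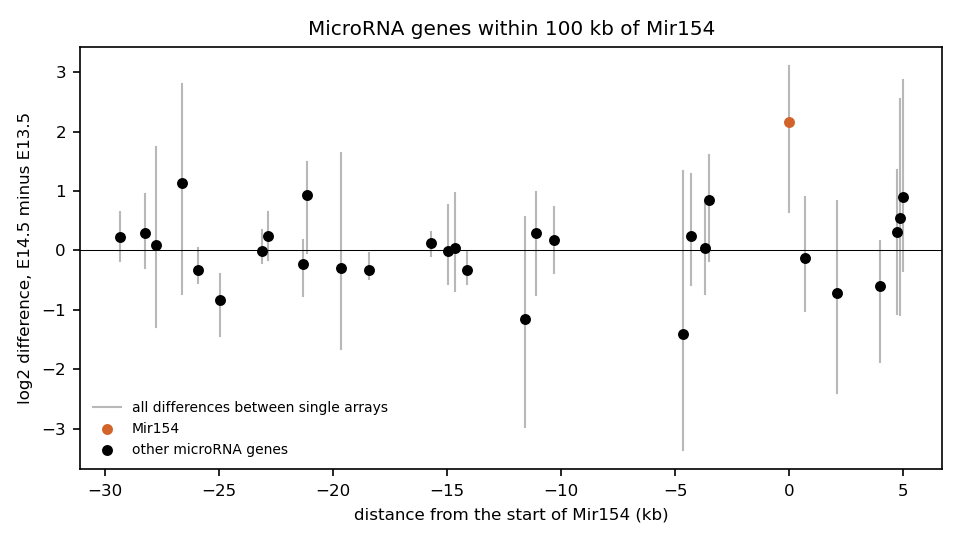
Log2 difference, E14.5 minus E13.5, of 30 microRNA genes by distance in kb from the start of Mir154, with grey lines from the smallest to the largest difference between single arrays of the stages. Mir154 (orange, 2.16) is the one called gene, the median is 0.07, and most grey lines cross 0.

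Genes of radial glia and some progenitor genes lay higher at E14.5 by small amounts. Of 17 markers of radial glia and astrocytes, 14 lay above 0 (82.4%, against 48.9% of all genes). Wholly higher were 3 (17.6%, against 4.75% of all genes) and wholly lower 0. Of the 17, 0 were called, and the median was 0.27, or 0.17 without E13.5 array 2. Fabp7, a fatty acid binding protein of radial glia, was at 9.79, 9.74 and 10.29 and then at 10.74, 10.42 and 11.18 (difference 0.84). Nfia and Nfib, nuclear factor I genes of the gliogenic switch and of late-born neurons, differed by 0.62 and 0.51. The defining astrocyte markers overlapped between stages: Gfap differed by 0.23, Aqp4 by 0.43 and Slc1a3 by 0.18. The mean level of the list ran from 7.28 to 7.44 at E13.5 and from 7.55 to 7.78 at E14.5, and its part in the differences of Ndrg2 and Sparcl1 was not tested.

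Among 30 floor plate and progenitor genes, 5 lay wholly higher (16.7%, against 4.75% of all genes) and 1 wholly lower (3.33%, against 4.93%). Id3, an inhibitor of basic helix-loop-helix factors, was at 0.98, and Rfx4, a factor gene of neural progenitors, at 0.80. Msx1, a roof and floor plate homeobox gene, was at -0.59, and Sox2 at 0.12 with overlap. In 26 proneural and early postmitotic genes, Neurog2, the proneural gene of this lineage, was lower by a difference of -0.59 (7.81 to 8.44 and then 7.47 to 7.55), and Nhlh1, a gene of newly born neurons, was higher at 0.75. Proliferation genes had no common direction: of 34, 2 lay wholly higher (the cyclin gene Ccna2 at 0.94 and Rrm2 at 0.69) and 2 wholly lower (Mcm7 at -0.75 and Top2a at -0.52). These shares of 5.88% each were near the 4.75% and 4.93% of all genes. Mki67 differed by 0.06, and the list median was 0.0028.

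Genes of neuronal differentiation were mixed within each list. Of 46 axon guidance and adhesion genes 0 were called, 6 lay wholly higher and 4 wholly lower, with the cadherin gene Cdh8 at 0.85 and the plexin gene Plxna2 at 0.54. Robo3, a Slit receptor family gene of commissural neurons, was at -0.88 (5.88 to 6.28 and then 4.81 to 5.40), and the ephrin gene Efna2 at -0.84. Without E13.5 array 3 the median of the 46 went from 0.0037 to -0.16 and 1 was called lower. In that setting 8 lay wholly higher (17.4%, against 11.5% of all genes) and 15 wholly lower (32.6%, against 10.7%). Of 29 peptide genes, Cbln2, a synapse organizer gene, was at 0.88 (5.83 to 5.95 and then 6.57 to 6.98), galanin (Gal) at 0.77 and the granin gene Scg2 at 0.59, while neuropeptide Y (Npy) was at -0.78. These 4 lay wholly apart between stages and none reached 2-fold. Penk had the largest difference of the list, -0.95, with overlapping arrays. Of the list, 10.3% lay wholly higher and 3.45% wholly lower, against 4.75% and 4.93% of all genes.

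Of 50 transmitter receptor genes, Grik2, a kainate receptor subunit gene, was at 0.83 and the nicotinic subunit gene Chrna5 at -0.71, both without overlap, and the GABA receptor subunit gene Gabra5 was at 1.02 with overlap. Among 44 ion channel genes, Kcnip4 and Kcnc2, of potassium currents, were at 0.68 and 0.65. Among 38 synaptic genes, the vesicle protein gene Sv2b was at 0.67 and Rab3a at 0.52, and among 31 cytoskeleton genes the proteoglycan gene Spock1 was at -0.60. The medians of the receptor, channel, synaptic and cytoskeleton lists were 0.04, 0.03, -0.0017 and -0.06, close to that of all genes, and no member was called with all 6 arrays. Without E13.5 array 3 the medians were 0.04, -0.05, -0.07 and -0.14, 1 receptor gene was called lower, and 8 of the 38 synaptic genes (21.1%) and 11 of the 31 cytoskeleton genes (35.5%) lay wholly lower, against 10.7% of all genes. Of 20 trophic factor genes, Ntrk2, the BDNF receptor gene, was at 0.38 and the dopamine neurotrophic factor gene Cdnf at -0.49.

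Wnt and Dickkopf genes, which the wider study concerned, showed few differences between stages. Of 47 measured, 0 were called, 0 lay wholly higher and 5 wholly lower (10.6%, against 4.93% of all genes). Without E13.5 array 3, 7 lay wholly lower (14.9%, against 10.7% of all genes), and without both arrays numbered 3, 10 did (21.3%, against 18.8%). The 5 were Lef1, a nuclear partner of beta-catenin, at -0.66 (6.71 to 7.27 and then 6.21 to 6.45), the receptor genes Fzd7 (-0.44), Fzd8 (-0.41) and Fzd1 (-0.30), and the ligand gene Wnt4 (-0.35). Axin2, a feedback target of beta-catenin, was at 0.20, Dkk3 at 0.18 (5.87 to 6.21 and then 6.03 to 6.57), Wnt1 at -0.16 and Wnt5a at 0.26, all with overlap. The mean level of the list ran from 6.16 to 6.18 at E13.5 and from 6.06 to 6.15 at E14.5.

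Most genes of oxidative phosphorylation and of the cytosolic ribosome lay above 0 by small amounts, and other metabolic genes were mixed. Of 41 subunit genes of oxidative phosphorylation, 37 lay above 0, 7 lay wholly higher (17.1%, against 4.75% of all genes) and 0 wholly lower. Of the 41, 0 were called, and the median was 0.21 (0.15 after the 6 arrays were quantile normalized again). The largest was Uqcrb of complex III at 0.56, with E14.5 array 1 at 10.33 and the other 5 arrays at 8.97 to 9.48. Atp5j of the ATP synthase was at 0.39. The list's mean level ran from 9.74 to 9.81 at E13.5 and from 9.93 to 10.06 at E14.5. Of 34 cytosolic ribosomal protein genes 32 lay above 0, with a median of 0.12 that became 0.04 after the same step and 0.08 without E13.5 array 3. Of 27 hypoxia and glycolysis genes, Aldoc, the brain aldolase gene, was at 0.88 (6.33 to 7.01 and then 7.06 to 7.82). Of 18 cholesterol synthesis genes, 3 lay wholly lower (16.7%, against 4.93% of all genes), among them Msmo1 at -0.46 and the regulator gene Srebf2 at -0.33. The median was -0.05, or -0.22 without E13.5 array 3.

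Markers of the other cell types that a sort from embryonic midbrain could hold were of mixed direction with all 6 arrays. Of 12 oligodendrocyte lineage genes, Pdgfra (0.54) and Olig1 (0.49) lay wholly higher (16.7%, against 4.75% of all genes), while Olig2 and Sox10 overlapped. Of 22 endothelial and pericyte genes, Rgs5, a pericyte gene, was at 0.87 and Kdr, a VEGF receptor gene, at -0.62, and the defining markers Pecam1, Cdh5 and Cldn5 were at -0.17, 0.36 and 0.13 with overlap. The median of these 22 was 0.01 with 6 arrays, but 0.21 without E13.5 array 3, where 18 lay above 0 and 7 wholly higher (31.8%, against 11.5% of all genes). Of 22 stromal genes, Igf2 was at 0.94 and Dcn at 0.58, whereas the collagen genes Col1a1 and Col3a1 were at 0.03 and -0.18. The choroid plexus gene Ttr was at -0.68 with overlap, and muscle, lens and erythroid lists had medians of -0.04 and -0.02. Of 21 interferon-stimulated genes, 0 were called and the median was 0.04. Without E13.5 array 3 it was 0.20, with 7 wholly higher (33.3%, against 11.5% of all genes) and 1 wholly lower (4.76%, against 10.7%). Of 11 familial parkinsonism genes, 0 were called, 3 lay wholly lower (27.3%, against 4.93% of all genes) and 0 wholly higher. Their median went from 0.07 to -0.12 without E13.5 array 3. In all, 10 of the 34 lists had array means that did not overlap between stages. No background was computed for this count. The lists share members, since 831 measured entries stand for 785 genes, and a list mean can rest on few of them. Among the 10, the floor plate and progenitor list had a median of 0.06 and the glutamatergic list one of -0.0093.

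**Figure D5:**
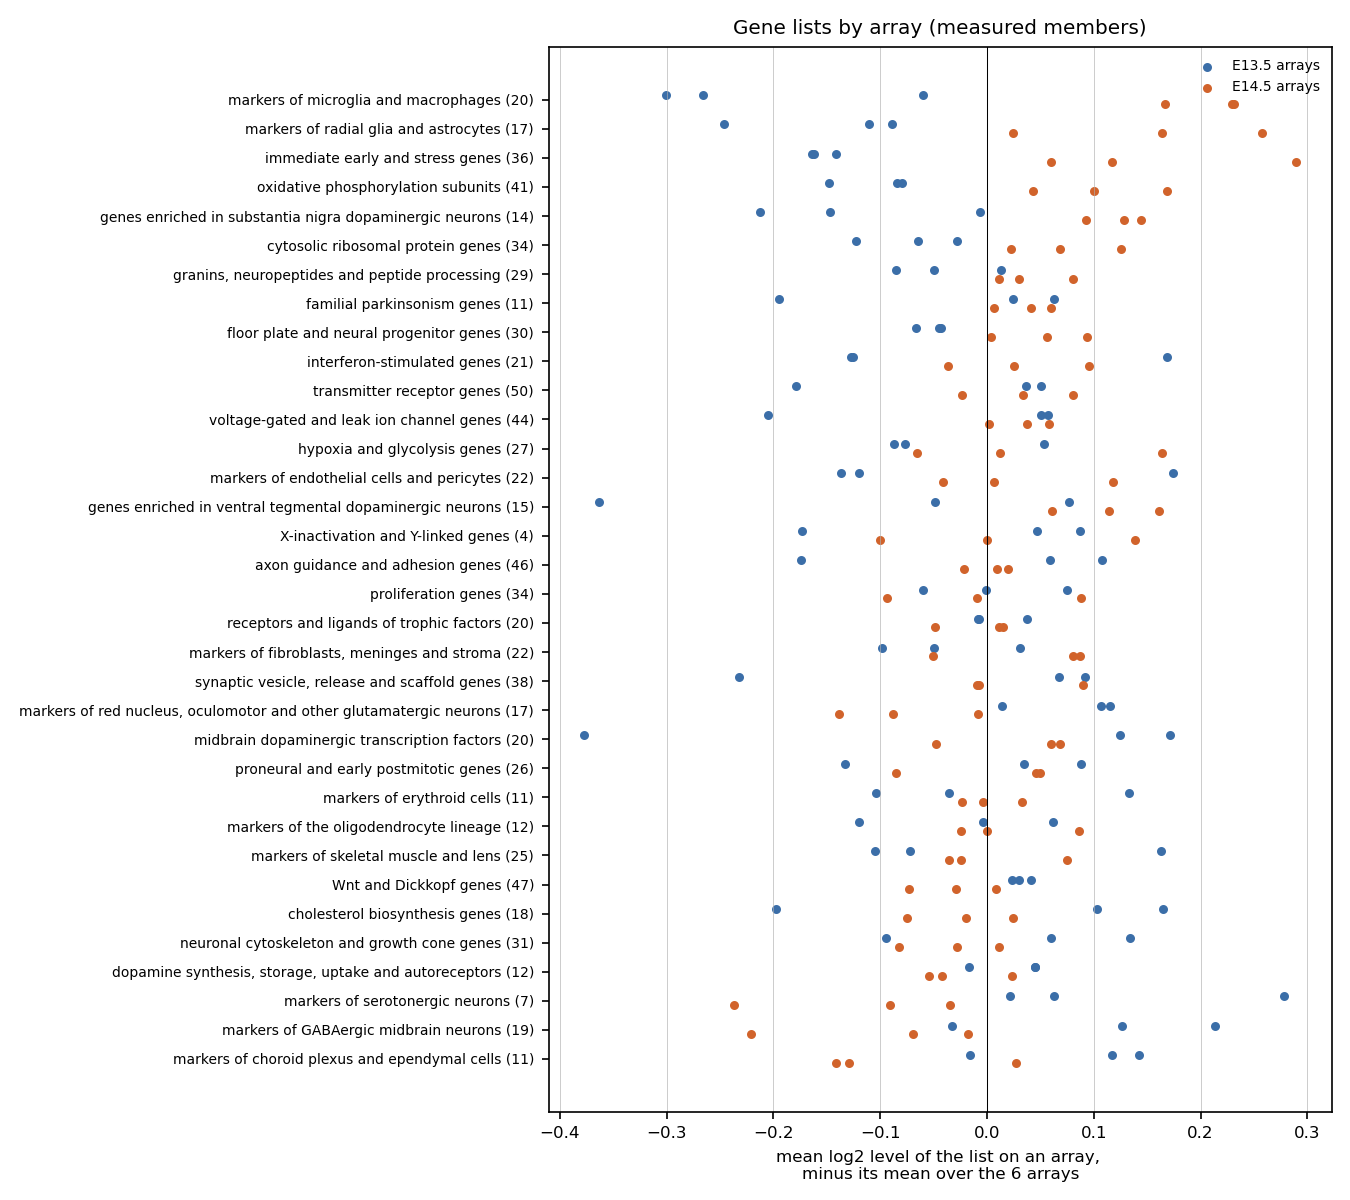
Mean log2 level of each of 34 gene lists on each array, minus the mean of that list over the 6 arrays, with the number of measured genes in brackets; blue points are E13.5 arrays and orange points E14.5 arrays. The E14.5 arrays all lie above the E13.5 arrays in 7 lists, among them microglia, radial glia and immediate early genes, all below in 3, and overlap in 24.

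Xist, the RNA of the inactive X chromosome, was at 9.06 to 9.53 on the 6 primary arrays, and the Y-linked gene Eif2s3y at 7.20 to 7.73. Both stages thus held transcripts of an inactive X and of a Y chromosome, above the ranges of the iPSC-derived arrays (4.35 to 6.46 and 3.40 to 3.84). Neither gene separated the stages, while the Y-linked gene Uty was at -0.37 without overlap.

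The genes called between stages were also read on the 10 iPSC-derived arrays, as levels only. Of the 35 genes higher at E14.5, the iPSC-derived median lay below both stage means in 19, between them in 7 and above both in 9. Of the 13 lower genes it lay below both in 6, between in 5 and above both in 2. The iPSC-derived medians of Neurod6 (3.39), Calb1 (4.30) and Ctss (4.42) lay below both stage means. That of Aldh1a1 was 6.57, but it reached 8.98 on the control array and 9.64 on the treated array numbered 5, between the stage means. Sparcl1 (median 11.79), Selenop (10.20) and Ndrg2 (9.95) were higher on iPSC-derived arrays than at either stage, and so was Gli3 (7.93), which was lower at E14.5 than at E13.5.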

How the data were processed

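The authors deposited 1 table of log2 values of 35556 probe sets on 16 arrays. RMA (background correction, quantile normalization and probe summary) and Affymetrix Expression Console 1.2 are named in the submitters' processing notes. Per the labels' protocols, RNA was extracted with RNeasy kits and, before biotin labelling, went through a whole-transcriptome amplification for small inputs (Ovation PicoSL WTA V2), a step that can widen the spread between arrays. Whether all arrays were normalized in 1 run is not given in the sources used here. Values lay between 2.496 and 13.773 on the primary arrays. No file gave a detection call, and the number of arrays limits the precision.

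Names of the 21789 probe sets with 1 gene symbol came from a table of the platform, and symbols were updated through Entrez IDs with a RefSeq table (GRCm38.p6). The probe set with the highest mean over all arrays stood for a gene, which gave 19938 genes. The 1621 probe sets with several symbols and the 12146 unlisted ones were left out. Of 905 entries in 34 gene lists, 831 were measured. Means and SDs over the 3 technical arrays of a stage were computed with pandas 2.3.3 and numpy 2.4.6 in Python 3.11.15. With 1 biological sample per stage no p-value was computed, and the spread between arrays is technical.

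Set to be named were the called genes with the largest differences, up to 15 per direction. Clone names, predicted genes and small RNAs were left out of these, and microRNAs were kept. A fixed dopaminergic and Wnt panel was added, with the defining markers of other cell types. In each list the called members or the 2 with the largest difference were added. Not all of these genes are named above. The called genes Snrnp35 (1.17) and Dnajc28 (-1.08) were left out, as were some list members and some defining markers, such as Alas2. Genes named beyond this choice were chosen after their values were seen. The comparison and the lists were chosen with earlier results of these data known, so a list's shift is no independent support. Deviations of arrays with equal numbers correlated at 0.08, 0.05 and 0.17 for numbers 1, 2 and 3, and those with unequal numbers at -0.12 to 0.07. Numbers were not treated as pairs in the main rule. The 2 arrays numbered 3 had 474 genes at least 2-fold apart. E13.5 array 3 had 888 and 809 such genes against E14.5 arrays 1 and 2. Whether the arrays numbered 3 shared a batch was not tested. Alternatives were the probe set rule, median for mean, a filter on the dimmest 25% of genes, centring, renewed quantile normalization, the fold size, the rule on overlap and leaving out each array.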

Additional observations from a re-analysis of the deposited data

Results flagged for a closer look

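Of 96 groups of iPSC-derived arrays looked at for the called genes, 12 had an array far from the others of its group, where chance gives about 1 in 20. In 10 of the 12 this was the array numbered 5. Treated array 5 was high in Aldh1a1 (9.64, nearest other array 6.67), Ctxn2 (5.71, nearest 4.08), Calb1 (5.3, nearest 4.31), Epha6 (5.08, nearest 4.3) and Neurod6 (3.86, nearest 3.46), and low in Alg1 (7.09, nearest 7.66) and Bloc1s3 (6.41, nearest 7.04). Control array 5 was high in Aldh1a1 (8.98, nearest 6.99), Egr1 (11.25, nearest 10.32) and Fos (9.92, nearest 9.12). Aldh1a1 was thus high on array 5 of both groups. Control array 1 was low in Rsph4a (6.87, nearest 7.58) and Zfp933 (5.78, nearest 6.54).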

How the results depend on the processing

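With the mean over probe sets, the median over arrays, no dim genes, centred arrays or renewed quantile normalization, 30 to 36 genes were higher and 11 to 14 lower. With the median over arrays, only 22 of the 35 and 7 of the 13 were among them. The fold size moved the counts, to 207 and 113 at 1.5-fold, 947 and 983 at any size and 1 and 0 at 4-fold (Mir154), and the size alone gave 47 and 20. Without 1 array, 49 to 70 were higher and 19 to 38 lower, since 2 arrays overlap less often than 3. Without both arrays numbered 3, chosen after seeing the data, 89 were higher and 63 lower, and 29 of the 35 and 11 of the 13 were among them. With a replicate block, each difference between arrays of equal number pointing the same way, 41 were higher and 15 lower. No called value changed sign in these alternatives. For leave-outs and for the median over arrays, the rule on overlap fixed that in advance, so it is no support. Of 408 list medians, 364 moved by less than the spread between arrays and 44, in 22 of 34 lists, by more, 0.23 at most. Of 1599 values of 134 named genes, 10 moved by more than that spread.

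Limits are 1 biological sample per stage, technical arrays that can share an extract, and levels relative to all RNA. Of 12146 probe sets with no listed gene, 120 met the calling rule toward higher and 122 toward lower levels, and they are not named here.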
